A study of Saccharomyces cerevisiae with 2 samples.

Results

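The data described here are the 255 Vid22 peaks whose summit lies between protein-coding genes of *Saccharomyces cerevisiae*, out of 811 peaks called in 1 chromatin immunoprecipitation library (31.4%). They were selected on the position of the summit, the base with the highest enrichment in a peak: outside every coding sequence, intron and noncoding RNA gene of the sacCer3 RefSeq annotation, and more than 250 bp from any tRNA gene. No threshold on fold or q-value was set. Of the other peaks, 362 had their summit in a protein-coding gene, 79 in a noncoding RNA gene and 115 outside genes but within 250 bp of a tRNA gene. Because the peak calls themselves chose the members, the presence of a peak is not a result here, and the fold and width of these peaks are given as a description.

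An antibody against MYC precipitated chromatin from a BY4741 strain with VID22-13MYC:HIS3MX6, which expresses Vid22-13Myc, and the control was a wild type (no tag) strain. Cultures were in YEP, and formaldehyde was the cross-linker. The DNA of 2 ChIP experiments was pooled for each library, so each strain has 1 library, no replicate exists and no test between samples was possible. For the control no antibody is named in the labels, although the paper's methods present it as a ChIP of the untagged strain. Its profile enters only through the peak calling. Reads were 50 bp long. The number of reads in each peak is not listed in the file, so the depth behind each value is unknown and the intervals given here cover the counting of peaks only.

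Vid22 is a nuclear protein with a BED-type zinc finger. With its paralog Env11 it is found together with Tbf1, an essential factor whose DNA-binding domain recognises TAGGG repeats and which acts at subtelomeres, at snoRNA genes and at many promoters. In the compact yeast genome the sequence between a pair of genes takes one of 3 arrangements. Between divergent genes it holds a promoter for each neighbour, between tandem genes it holds the terminator of one gene and the promoter of the next, and between convergent genes it holds a pair of terminators and no promoter. The stretch between protein-coding genes is called a spacer below, and eligible bases are all bases at which a summit would have met the rule.

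Sequence at the summit is shown for a pair of members at the top of each arrangement by fold, for the SKN7 promoter, and for the member with the highest fold that lacks TAGGG within 100 bp. All are from the RefSeq sequence of sacCer3, forward strand, 5′ to 3′, centred on the summit. Capitals mark TAGGG, written CCCTA where it lies on the reverse strand. The first pair comes from divergent spacers (chrI:92648-92748 and chrVI:233740-233840) and was taken by chromosome order from 5 members that tie for the highest fold. The second pair comes from tandem spacers (chrIV:264246-264346 and chrXI:247905-248005). The fifth and sixth, limited to the bases around the summit, come from convergent spacers (chrIII:14632-14660 and chrVIII:411116-411144). The last pair is SKN7 (chrVIII:512244-512344) and the divergent spacer of ATG26 and MMR1 (chrXII:534578-534678).
MYO4-FRT2: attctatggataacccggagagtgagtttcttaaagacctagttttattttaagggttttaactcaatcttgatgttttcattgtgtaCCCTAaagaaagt
OSW7-SAP155: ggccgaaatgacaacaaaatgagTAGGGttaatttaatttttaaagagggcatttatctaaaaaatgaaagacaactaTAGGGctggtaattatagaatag
RRP42-TMA17: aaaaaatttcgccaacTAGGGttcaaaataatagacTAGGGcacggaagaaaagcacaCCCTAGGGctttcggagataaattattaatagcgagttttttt
APE1-YKL102C: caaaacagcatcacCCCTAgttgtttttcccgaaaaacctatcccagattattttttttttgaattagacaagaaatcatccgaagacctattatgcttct
HMLALPHA1-CHA1: tattttcatttattagtaagtggggttct
LAM1-LIN1: ttacgcgccaggtggatagaggaaatttg
SCH9-SKN7: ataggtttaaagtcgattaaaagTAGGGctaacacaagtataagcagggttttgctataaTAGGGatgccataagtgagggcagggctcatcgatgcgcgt
ATG26-MMR1: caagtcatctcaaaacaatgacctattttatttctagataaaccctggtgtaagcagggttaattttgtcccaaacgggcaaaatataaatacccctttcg

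Summits between genes lay mostly between divergent neighbours. Of the 255 members, 140 were in divergent spacers (54.9%, 95% Wilson interval 48.8% to 60.9%), which make up 25.9% of spacers and 32.7% of eligible bases. Tandem spacers held 87 members (34.1%, 28.6% to 40.1%), against 50.3% of eligible bases. Convergent spacers held 12 (4.71%, 2.71% to 8.04%), against 15.8% of eligible bases. The remaining 16 lay between the outermost gene and a chromosome end, where 1.20% of eligible bases are. Of the 5889 spacers with an eligible base, 252 held at least 1 member (4.28%). That share was 9.04% for divergent, 3.09% for tandem and 0.793% for convergent spacers, and 46.9% for the 32 spacers at chromosome ends. Per 100 kb of eligible sequence this is 13.9 members between divergent genes, 5.61 between tandem genes, 2.47 between convergent genes and 43.4 at chromosome ends. Spacers with a member were longer than spacers at large in every arrangement, with medians of 720 bp against 511 for divergent, 733 against 401 for tandem and 557 against 231 for convergent pairs. A longer spacer holds more eligible bases, so medians not weighted by length cannot show whether summits favour long spacers.

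The fold enrichment of the members fell into 2 ranges with few values between them. It was below 2 in 141 members, between 2 and 3 in 25, between 3 and 4 in 6, and above 4 in the other 83. The median over all members was 1.87 (order-statistic interval 1.78 to 2.08), beside 1.64 for all peaks and 1.51 for peaks in protein-coding genes. A fold above 3 was reached by 89 members (34.9%), beside 11.1% of all peaks. These 89 are called strong members below and the other 166 weak. Of the 90 peaks of the list above 3 only 1 lay elsewhere, in a protein-coding gene. The q-value threshold in the paper's methods, -log10 q of 9 or more, was met by 181 members (71.0%), beside 54.9% of all peaks.

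**Figure D1:**
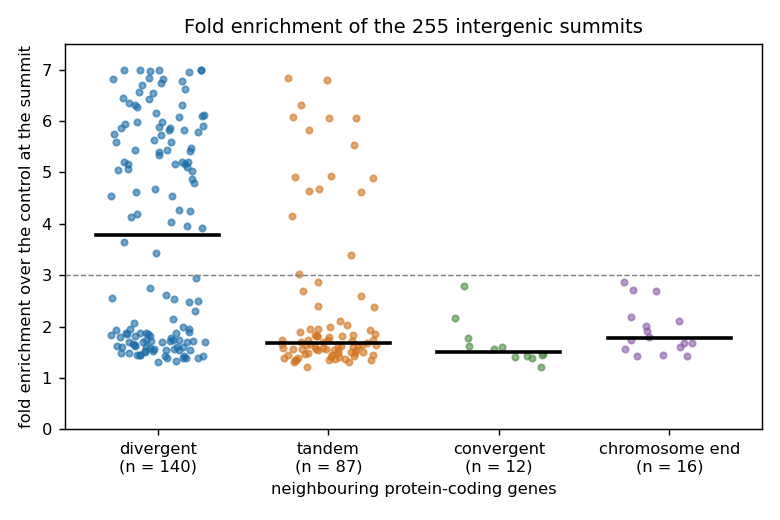
Each point is 1 of the 255 members, with its fold at the summit, relative to the control, on the vertical axis and the arrangement of the neighbouring protein-coding genes on the horizontal axis; black bars are medians (3.79, 1.68, 1.51 and 1.77 from left to right) and the dashed line is a fold of 3. Divergent and tandem members form a low and a high cloud, while convergent members and those at chromosome ends all stay below 3.

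The strong members were more one-sided in arrangement than the rest. Of the 89, 72 lay between divergent genes (80.9%, Wilson interval 71.5% to 87.7%) and 17 between tandem genes (19.1%). None lay between convergent genes or in the outermost spacers at chromosome ends. Within 20 kb of an end there were 4 (4.49%), against 10.5% of eligible bases. An annotated telomere lay within 200 bp of 3 of the 89 (3.37%) and of 23 of the 166 others (13.9%). Of these 23, 15 lay in the outermost spacers. The share of eligible bases that near a telomere was not computed, so neither count can be called high or low. Among the 166 members with a fold of at most 3, 68 were divergent (41.0%). Put the other way, 51.4% of divergent members and 19.5% of tandem members were strong. The median fold was 3.79 for divergent, 1.68 for tandem, 1.51 for convergent members and 1.77 at chromosome ends. Without the members within 20 kb of a chromosome end, a choice made after the values were seen, 70 of 85 strong members were divergent (82.4%).

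The 5 members with the highest fold shared the value 6.98, the top of the list, and all were divergent. They also shared the same -log10 p-value, 291, and -log10 q-value, 284. Whether these values are an upper limit set by the read processing was not tested. The first lay between MYO4, a myosin motor that carries messenger RNA to the bud, and FRT2, at position 92698 of chromosome I, 428 bp from the start of MYO4 and 202 bp from that of FRT2. The summit at 233790 of chromosome VI was 246 bp from the start of OSW7 and 452 bp from that of SAP155, whose product associates with the phosphatase Sit4. Between CHC1, the clathrin heavy chain, and POX1, the acyl-CoA oxidase of peroxisomes, the summit at 107827 of chromosome VII was nearly central, 323 and 331 bp from the starts. These 3 have 3 TAGGG sites each within 100 bp of the summit. The summit between YLR225C and BUR2, the cyclin of the Bur kinase, lay at 589176 of chromosome XII, 258 and 178 bp from the starts. The last, at 606371 of chromosome XV, was 200 bp from PNO1, a 40S ribosomal subunit assembly factor, and 236 bp from MDM32. In these 5 spacers of 435 to 697 bp the summit was thus 178 to 452 bp from either start, while the peaks around them were 2926 to 8594 bp wide.

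Others among the 10 highest by fold followed closely. POM34, a membrane protein of the nuclear pore, and PSR2 flanked a summit with 6.95, 273 and 409 bp away. YML018C and PSP2 had a fold of 6.84 at 410 and 226 bp. SCO1, which delivers copper to cytochrome c oxidase, and CHS2, the chitin synthase of the primary septum, had 6.82 at 179 and 267 bp. A tandem one lay at RRP42. The 10 values differ by 0.163 of a fold unit at most, and with 1 library they cannot be ranked.

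Within a divergent spacer, summits were nearer to the middle than eligible bases in general. The median distance to the nearer of the pair of starts was 266.5 bp (241 to 305), against 194 bp for eligible bases of divergent spacers, and the median distance to the farther start was 447.5 bp against 647 bp. The summit lay at a median offset of 79.8 bp from the middle of the spacer, where eligible bases have 199 bp. Strong divergent members lay in shorter spacers, with a median of 582.5 bp, and closer to both starts: 226 bp (202 to 244) to the nearer and 353 bp (321 to 403) to the farther. Their median offset from the middle was 51.5 bp. Divergent members with a fold below 2 lay in spacers of 1014.5 bp, 358.5 and 631.5 bp from the starts and 130 bp from the middle. As a share of the spacer length, the nearer start was 40.2% away (37.0% to 42.8%) for strong divergent members. For those with a fold below 2 it was 37.5% (31.8% to 40.4%), so these intervals overlap.

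**Figure D2:**
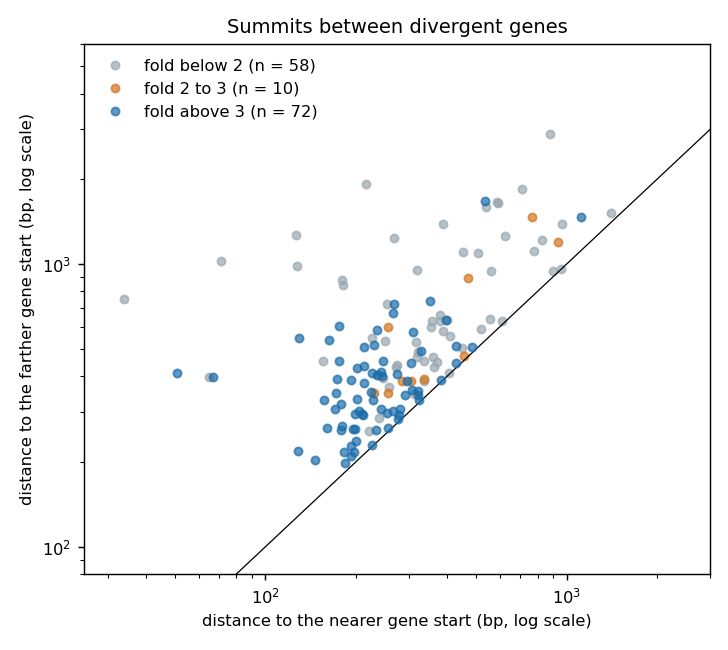
Each point is 1 of the 140 members between divergent genes, placed by the distance of its summit to the nearer gene start (horizontal axis, bp, log scale) and to the farther gene start (vertical axis, bp, log scale), with colours for the fold band; points on the diagonal line are equally far from both starts. The strong members gather near the diagonal around 226 and 353 bp, and the members with a fold below 2 spread to longer distances.

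Distances to the nearest bordering start were concentrated in a narrow range for the strong members. Of the 89, 28 lay 101 to 200 bp and 39 lay 201 to 300 bp upstream of it, together 75.3%, while 33.6% of the eligible bases with a bordering start are that far. There were 2 (2.25%) within 100 bp of a start, where 22.3% of eligible bases are. Beyond 500 bp there were 4, of which 3 were beyond 1000 bp. The members with a fold of at most 3 that have a bordering start, 145 in number, were spread more widely: 23.4% lay 101 to 300 bp and 39.3% more than 500 bp from it. The annotation starts genes at the start codon, so these distances include any untranslated leader.

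Tandem members lay farther from the downstream start than eligible bases do. Their median distance to the start of the downstream gene was 438 bp (354 to 511), and to the end of the upstream gene 350 bp (258 to 453). The eligible bases of tandem spacers have 306 and 309 bp. The 17 strong tandem members were closer to both, with medians of 286 bp (265 to 354) from the start and 216 bp (151 to 424) from the end. The member at RRP42, which encodes a core subunit of the RNA exosome, had a fold of 6.84 at 264296 of chromosome IV, 186 bp upstream of the start of RRP42 and 216 bp from the end of TMA17. APE1, the vacuolar aminopeptidase, had a summit with 6.80 at 247955 of chromosome XI, 273 bp upstream of its start. TBF1 itself was among them, with a fold of 6.31 and the summit 193 bp upstream of its start, in the spacer it shares with the end of HHO1, the linker histone gene. At SKN7, the stress-responsive transcription factor, the fold was 6.09 and the summit lay 438 bp upstream of the start and 457 bp from SCH9, which encodes a nutrient-regulated kinase. ARX1, a nuclear export factor of the 60S ribosomal subunit, had a fold of 6.06 with the summit 155 bp upstream of its start and 26 bp from the end of YDR102C. No member lay in a spacer bordered by VID22 or ENV11.

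The 12 convergent members were few and low. Their fold ran from 1.21 to 2.79 with a median of 1.51 (1.40 to 1.78), and the nearer gene end was 100.5 bp away at the median, against 96 bp for eligible bases of convergent spacers. The highest, with 2.79 at 14646 of chromosome III, lay between HMLALPHA1, the silent copy of the alpha mating type gene, and CHA1, a serine deaminase of the catabolic pathway, 837 and 1152 bp from their ends. The one between LAM1 and LIN1 had 2.16 and the one between YLL066W-B and YLL066C, a helicase gene of a Y′ element, had 1.78. MID2-RPS25B and YHR140W-RPL42B followed with 1.62 and 1.60, both beside a ribosomal protein gene. A snoRNA gene lay in the spacer of 5 of the 12, among them LAM1-LIN1, MID2-RPS25B and YHR140W-RPL42B. TAGGG occurred within 100 bp of the summit in 1 of the 12, YLL066W-B-YLL066C, whose summit also lies within a predicted G4 element. The sequences printed above for the highest 2 convergent members hold no TAGGG.

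Spacers that also hold a noncoding RNA gene gave only weak members. There were 26 of these in all arrangements, 21 of them with a snoRNA gene, and their fold ran from 1.21 to 2.16 with a median of 1.54. None of the 89 strong members had a noncoding RNA gene in its spacer (Wilson interval up to 4.14%). The share of eligible bases in spacers with such a gene was not computed. These counts, and that of snoRNA genes among convergent members, therefore cannot be called high or low. TAGGG lay within 100 bp of the summit in 5 of the 26 (19.2%), where 15.3% of all eligible bases have it.

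At chromosome ends, 16 members lay in 15 of the 32 outermost spacers, with folds from 1.43 to 2.86 and a median of 1.77. The summit was 91 to 338 bp from the last base of the chromosome sequence in 15 of them and 1169 bp in the other. TAGGG lay within 100 bp in 13 of the 16 (81.3%, Wilson interval 57.0% to 93.4%) and a predicted G4 element within 200 bp in 12 (75.0%, 50.5% to 89.8%), and 40.2% and 31.7% of the eligible bases at chromosome ends have them that near. These include the summits farthest from any gene start: end-GEX1 on chromosome III at 8009 bp, GEX2-end on chromosome XI at 5166 bp and PHO11-end on chromosome I at 4475 bp, with folds of 1.43, 1.43 and 1.74. GEX1 and GEX2 encode glutathione exchangers and PHO11 an acid phosphatase. Chromosome ends are repeated sequence, and only reads with a single best position were kept. Of the 3 members in all arrangements with less than 50% of unique 50-base words around the summit, 2 are here, YCR108C-end and end-COS12.

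Peak width followed the same division as fold. Members had a median width of 709 bp (604 to 866), against 489 bp for all peaks and 525 bp for peaks in protein-coding genes. Strong members had a median of 3274 bp, and the other members one of 492.5 bp. By arrangement it was 1215.5 bp for divergent, 552 bp for tandem and 489 bp for convergent members and 730 bp at chromosome ends. Of the 66 members wider than 2000 bp, 58 were divergent and 8 tandem, and 65 of the 66 were strong. Across the 255 members fold and width had a Spearman correlation of 0.75, as a description of peaks that share 1 library and 1 control. Within the strong members it was 0.11, and within the others 0.26. Both quantities come from the same read profile.

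**Figure D3:**
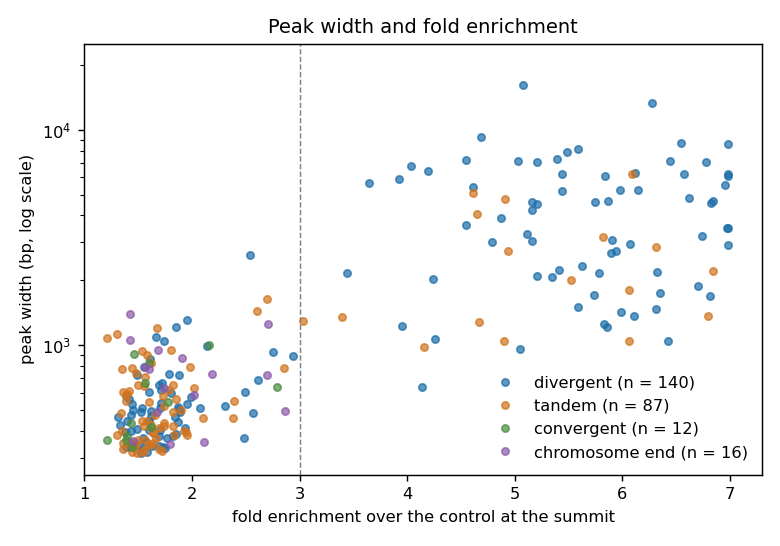
Each point is 1 of the 255 members, with fold enrichment at the summit on the horizontal axis and peak width (bp, log scale) on the vertical axis, coloured by the arrangement of the neighbouring genes; the dashed line is a fold of 3. Members below 3 are mostly narrower than 2000 bp, strong members have a median of 3274 bp, and within these clouds the Spearman correlation of width and fold is 0.26 and 0.11.

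The wide peaks reached far beyond the spacer that holds their summit. Of the strong members, 83 of 89 (93.3%) extended past both edges of the spacer and 63 (70.8%) covered at least 1 whole protein-coding gene, while 6 (3.61%) and 11 (6.63%) of the 166 others did. The widest member had its summit 183 bp from the start of SSK22, a MAP kinase kinase kinase of the osmotic stress pathway, and 197 bp from that of SOL2 on chromosome III. It spanned 16209 bp, 12878 bp of them to the left of the summit and 3330 bp to the right, and covered 9 genes, with a fold of 5.07. The second, between TGL3, a triglyceride lipase, and PRE5, an alpha subunit of the proteasome core, spanned 13298 bp and 9 genes on chromosome XIII with a fold of 6.27. The third, between EGD2, a subunit of the nascent polypeptide-associated complex, and MDM31 on chromosome VIII, spanned 9282 bp and 6 genes with a fold of 4.68. Their summits were all within 183 to 228 bp of both starts. The narrowest members, MCM7-COS111 with 316 bp, DIF1-CAR2 with 317 bp and RPL20B-SPS4 with 319 bp, had folds of 1.49, 1.53 and 1.55. In most strong members the peak extended about evenly, since 7 of 89 had one side more than 2 times as long as the other, against 56 of 166 of the rest. The medians of the strong members were 1743 bp to the left and 1530 bp to the right.

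TAGGG at the summit went with a fold above 3 in both main arrangements. It was searched on both strands, and a match is given as a description of the sequence. It lay within 100 bp of the summit in 84 of 89 strong members (94.4%, Wilson interval 87.5% to 97.6%), in 16 of 25 members with a fold of 2 to 3 (64.0%, 44.5% to 79.8%) and in 34 of 141 below 2 (24.1%, 17.8% to 31.8%). The share of eligible bases with TAGGG within 100 bp is 15.3%, and it differs little between divergent (16.7%), tandem (14.7%) and convergent spacers (12.8%). Both arrangements of strong members had it often, 69 of 72 divergent and 15 of 17 tandem. Weak members had it at similar shares in both, 19 of 68 divergent (27.9%, 18.7% to 39.6%) and 17 of 70 tandem (24.3%, 15.8% to 35.5%). Both shares were lower than in strong members and higher than in the eligible bases of the same arrangement. Sites came in groups: 60 of the 89 strong members had 2 or more within 100 bp and 27 had 3 or more, with 5 as the highest number, as against 23 of the 166 others with 2 or more. In the 60 with several, the 2 sites nearest the summit started a median of 28.5 bp apart, and in 41 of the 60 they were on the same strand.

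The site was also close to the summit base. In strong members its centre was a median of 21 bp from the summit, within 10 bp in 30 of 89 and within 50 bp in 78. In the other members the median was 254.5 bp, and for eligible bases 429 bp. The distances for some named members were 2 bp for SCO1-CHS2, 10 bp for CHC1-POX1 and 1 bp for TGL3-PRE5, while POM34-PSR2 had 90 bp.

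**Figure D4:**
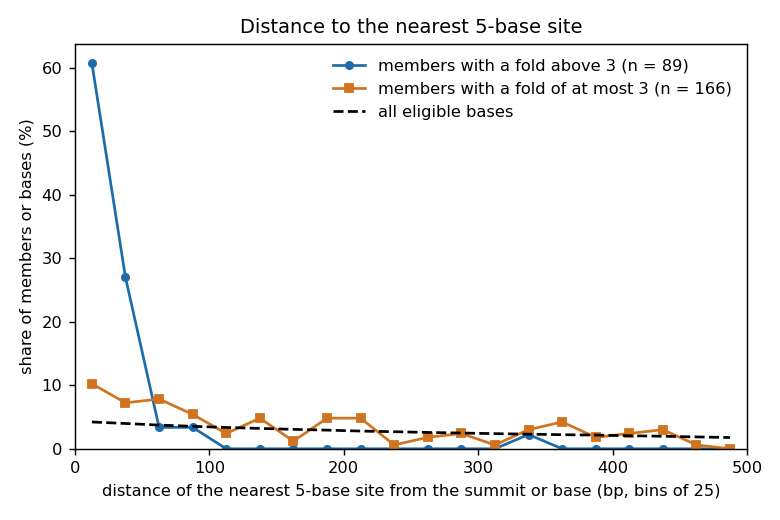
The horizontal axis is the distance in bp, in bins of 25, from the summit of a member or from an eligible base to the centre of the nearest TAGGG on either strand (the 5-base site), and the vertical axis is the share of members or bases in each bin. The line of the 89 strong members is concentrated in the first bins, with 87.6% within 50 bp, while the 166 others and the eligible bases are spread over the whole range.

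The bases after TAGGG were far from even in the strong members. Within 100 bp of their summits there were 184 TAGGG sites, and in 173 of them (94.0%, Wilson interval 89.6% to 96.6%) the next base was C or T. Over the 2785 sites in eligible sequence that share is 52.5%, and over the 84 sites at the other members it is 75.0% (64.8% to 83.0%). C or T followed by T, which gives TAGGGCT or TAGGGTT, occurred at 47.8% of the sites of strong members (40.7% to 55.0%) and at 17.8% of eligible sites. At least 1 of these 7-base forms lay within 100 bp of the summit in 62 of 89 strong members (69.7%, 59.5% to 78.2%) and in 17 of the 166 others (10.2%, 6.49% to 15.8%), and 2.82% of eligible bases have one that near. The base before TAGGG was T at 41.8% of the sites of strong members and at 30.3% of eligible sites. In the printed sequences, OSW7-SAP155 has TAGGGTT on the left and TAGGGCT on the right of its summit, and SCH9-SKN7 has TAGGGCT followed by TAGGGAT. These 7-base forms were chosen after the bases beside the sites had been seen. At SKN7 the paper mutated both TAGGG sites and found no significant change of Vid22 binding by ChIP-qPCR. It reports that binding there was lost when the G4-forming sequence was mutated. By the oligos in its methods, that mutation also turns the second TAGGG into TAGCG. In strains with both TAGGG sites mutated, the paper reports that binding still depended on the G4. It also reports that purified Vid22 bound the SKN7 G4 sequence in vitro.

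The 5 strong members without TAGGG within 100 bp all had a 7-base form that differs from TAGGGCT or TAGGGTT in the first base only. ATG26-MMR1, with a fold of 6.74, has cagggtt 7 bp from the summit, as its printed sequence shows. ATG26 encodes a sterol glucosyltransferase and MMR1 a factor for the inheritance of mitochondria. PUF3-YEH1 (6.32) has gagggct at 38 bp, IDI1-HOS3 (5.74) has aagggct at 19 bp, PRB1-SOM1 (4.67) has gagggct at 12 bp and TIM23-RCF2 (4.16) has cagggct at 44 bp. PUF3 encodes a regulator of messenger RNAs for mitochondrial proteins, IDI1 an isomerase of sterol synthesis, PRB1 the vacuolar protease B and TIM23 a channel of mitochondrial protein import. The PRB1 and TIM23 members are tandem and have a predicted G4 element 6 and 75 bp from the summit. These members were named after their values were seen. Some such form, with A, C or G in place of the first T, lay within 100 bp in 48 of all 89 strong members (53.9%, 43.6% to 63.9%) and in 28 of the 166 others (16.9%), and 8.26% of eligible bases have one.

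Seen from the sites, arrangement and sequence went together. Eligible sequence holds 497 sites of the form TAGGGCT or TAGGGTT, and 87 of them (17.5%) had a strong summit within 100 bp. Between divergent genes it was 74 of 177 (41.8%, Wilson interval 34.8% to 49.2%), and between tandem genes 13 of 214 (6.07%, 3.58% to 10.1%). Between convergent genes it was 0 of 58 (up to 6.21%), and at chromosome ends 0 of 48 (up to 7.41%). Chromosome ends are repeated sequence, and only reads with a single best position were kept. Any site there at which no peak could be called also counts as lacking a strong summit. TAGGG sites with other bases after them had a strong summit near them in 75 of 839 cases between divergent genes (8.94%, 7.19% to 11.1%) and 20 of 1077 between tandem genes (1.86%, 1.21% to 2.85%). Several sites can share 1 summit, so sites are not independent of each other. Distance to the start moved with this share: among the 7-base sites 101 to 400 bp upstream of the nearest bordering start, 69 of 122 divergent (56.6%, 47.7% to 65.0%) and 12 of 81 tandem sites (14.8%, 8.68% to 24.1%) had a strong summit near them. Among the sites at other distances it was 5 of 55 and 1 of 133. This range was chosen after the distances of the strong members were known.

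**Figure D5:**
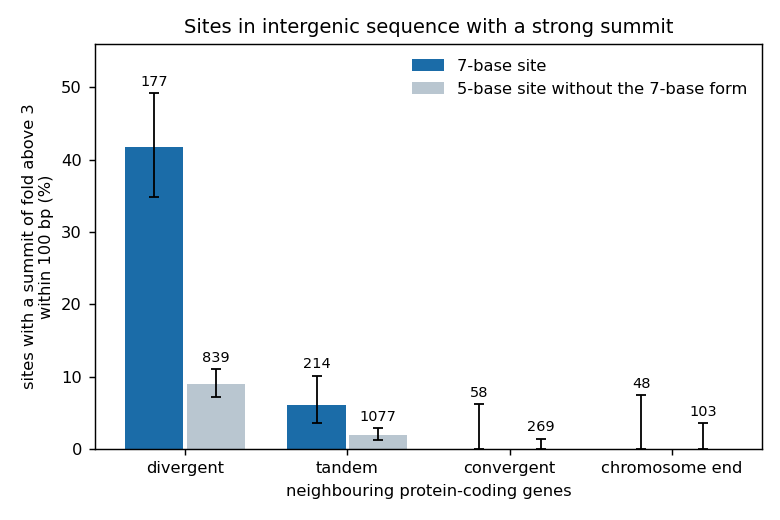
Bars give the share of sites in eligible sequence with a strong summit (fold above 3) within 100 bp, for TAGGGCT or TAGGGTT (the 7-base site, dark) and for TAGGG followed by other bases (light), by the arrangement of the neighbouring genes; error bars are 95% Wilson intervals and the numbers above them are the sites counted. The dark bar of divergent spacers reaches 41.8%, that of tandem spacers 6.07%, and both are 0 in convergent spacers and at chromosome ends.

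The same strong members and 7-base sites were also counted by spacer, which is a recount and adds no separate evidence. Of the 5889 spacers, 89 held a strong member (1.51%). Among those with exactly 1 site of the 7-base form, 39 of 117 divergent (33.3%, Wilson interval 25.4% to 42.3%), 6 of 165 tandem (3.64%, 1.68% to 7.71%) and 0 of 50 convergent spacers (up to 7.13%) did, and the median lengths of these spacers were 674, 652 and 502.5 bp. With 2 or more sites it was 19 of 28 divergent spacers (67.9%, 49.3% to 82.1%) and 5 of 20 tandem spacers (25.0%, 11.2% to 46.9%). With none it was 14 of 1381 divergent (1.01%) and 6 of 2633 tandem spacers (0.228%).

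Other promoter motifs were less frequent at the summits. The consensus of Abf1, a general regulatory factor, lay within 100 bp in 16 of 89 strong members (18.0%, 11.4% to 27.2%) against 5.73% of eligible bases. TTACCCG, the core bound by Reb1, occurred in 9 (10.1%, 5.41% to 18.1%) against 3.46%. CACGTG, bound by Cbf1, occurred in 6 (6.74%, 3.13% to 13.9%) against 2.27%. For divergent spacers, which hold most strong members, the eligible-base shares are higher, 7.75%, 4.57% and 3.28% in the same order. In the 166 other members the shares were 12.7% (8.43% to 18.6%), 3.61% and 3.61%. The motifs of ribosome biogenesis genes were near their background, with CGATGAG (the PAC motif) at 3.37% against 2.81% and the RRPE motif at 12.4% against 9.95%. The Rap1 consensus was in none of the 89 (up to 4.14%) and in 14 of the 166 others (8.43%, 5.09% to 13.7%), 7 of which lay at chromosome ends, against 0.354% of eligible bases and 11.0% of those at chromosome ends. All were searched on both strands.

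Predicted G4 elements, at least 4 tracts of GGG with loops of 1 to 25 bases, lay within 200 bp of the summit in 58 of the 255 members (22.7%, Wilson interval 18.0% to 28.3%), and 3.41% of eligible bases have one that near. The element was near 23 of 89 strong members (25.8%, 17.9% to 35.8%) and 35 of 166 weak ones (21.1%, 15.6% to 27.9%), and 12 of those 35 lay at chromosome ends. Leaving these spacers out, it was near 23 of 150 weak members (15.3%, 10.4% to 22.0%). Between tandem genes it was near 10 of 17 strong (58.8%, 36% to 78.4%) and 7 of 70 weak members (10.0%, 4.93% to 19.2%). Between divergent genes it was near 13 of 72 strong (18.1%, 10.9% to 28.5%) and 15 of 68 weak members (22.1%, 13.8% to 33.3%). Of the eligible bases, 2.91% in tandem and 4.44% in divergent spacers have such an element that near. At TBF1 and at SKN7 the summit was inside such an element, and at SSK22-SOL2 it was 63 bp from one. Of the 10 members with the highest fold, none had one within 200 bp of the summit. A run of TAGGG contributes GGG tracts to such elements, so these counts and those of TAGGG are not separate. Of other annotated elements, a replication origin lay within 200 bp of 6 members (2.35%) and 5.10% of eligible bases, and a long terminal repeat lay within 200 bp of none (up to 1.48%), against 4.74%. Long terminal repeats are repeated sequence, and only reads with a single best position were kept. How far this limits the count was not tested.

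Members were counted at the starts of selected gene groups. Of the 5879 starts of protein-coding genes that border an eligible spacer, 369 (6.28%) had a member in that spacer and 161 (2.74%) a strong one. Genes of the cytosolic ribosome had members often but only weak ones: 23 of 137 starts (16.8%, Wilson interval 11.5% to 23.9%) and none strong, with a median fold of 1.58. RPL35A and RPS0A are among them, and the 32 members beside any such gene, at its start or its end, had folds from 1.30 to 1.95. Ribosome biogenesis factors had members at 9 of 135 starts (6.67%), close to the share of all starts, 3 of them strong: ARX1, PNO1 and DBP7, a helicase of 60S assembly. Of the RNA exosome core, 2 of 11 starts had a strong member, RRP42 and the catalytic subunit gene DIS3. Of the Paf1 complex and Bur kinase, 2 of 7 did, PAF1 and BUR2. Proteasome genes had 4 of 34, with PRE5 and PUP1 strong and PRE7 and RPN12 weak. Mitochondrial ribosomal protein genes had 4 of 64 (6.25%), also close to it, with MRPL11, MRPL15 and MRPL16 strong and RSM7 weak. Glycolysis genes had 1 of 20, HXK2 with a fold of 1.42. Of 8 genes for the Vid22 complex and general regulatory factors, TBF1 alone had a member. The small lists hold too few genes to compare with the background.

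The limits of the rule cut few peaks closely. The members nearest to a tRNA gene were MTC3-VRG4 at 711 bp and BUD31-HCM1 at 836 bp, with folds of 1.57 and 1.75. The nearest peaks on the other side of the limit lay 65 and 53 bp from a tRNA gene, with folds of 1.35 and 1.52, so no summit outside genes fell between 65 and 711 bp. The members nearest to a coding sequence, OPT2-YPR195C at 5 bp and RPL37A-EMG1 at 7 bp, had folds of 1.54 and 1.48. The summits just inside one, 3 bp in RPN10 and 5 bp in ISC1, had 1.68 and 1.49. At a fold of 3, the nearest members were YBL111C-PAU9 above it with 3.03 and YRF1-6-COS1 below it with 2.94.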

How the data were processed

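Reads of the Vid22-13Myc library and of the untagged control were processed by the authors. Per the paper's methods and the submitters' notes, they were aligned with Bowtie to sacCer3, kept where they had a single best alignment, cleared of PCR duplicates with SAMtools and used to call peaks with MACS2 at default parameters; versions are not given in the sources used here. The deposited score is 10 times the -log10 q-value, rounded down. The deposited fold is the ratio of pileup to local control at that base, and the deposited -log10 p-value and q-value belong to it too. The lowest -log10 q is 1.34, below the threshold in the methods. Peak edges and the offset of the summit are positions in the deposited file.

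Summits were placed in the RefSeq annotation of 6008 nuclear protein-coding and 275 tRNA genes, and each spacer was classed by the strands of its neighbours. Shares have 95% Wilson intervals and medians have order-statistic intervals; no test was made, since members of 1 library are not replicates. Members and gene lists were chosen with earlier results of these data known. Members named in the text are the 10 highest by fold, the 5 highest of each arrangement, the 3 widest and 3 narrowest, those bordered by SKN7, VID22, ENV11, TBF1 or a gene of the first 10, the 3 farthest from a start, and those nearest the limits of the rule; others were named after their values were seen. Some members that this rule names are not reported here. The selection was checked on simulated peaks. Figures were drawn with matplotlib 3.10.9 and values computed with pandas 2.3.3, numpy 2.4.6 and scipy 1.17.1 under Python 3.11.15. Alternatives varied the q-value, the position taken for a peak, the tRNA limit, chromosome ends, width, merging, noncoding genes and both distance limits.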

Additional observations from a re-analysis of the deposited data

How the results depend on the processing

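The order divergent, tandem, convergent held under all 8 alternative selections, which held 114 to 251 peaks against 255. The one by midpoint was drawn from all 811 peaks and not from the members alone. With -log10 q at 9 or more the divergent share was 61.3% and the tandem share 27.1%, the median width 1069 bp, TAGGG within 100 bp was found in 63.5% and 73.5% lay at most 500 bp upstream of a start. With -log10 q at 20 or more these were 71.9%, 21.1%, 2484 bp, 87.7% and 85.1%, the convergent share was 1.75% and the median distance to the nearest start 255 bp. With the midpoint in place of the summit, the divergent share was 47.3% and TAGGG was found in 31.3%. Without peaks longer than 2000 bp, the shares were 43.4% divergent and 41.8% tandem, the median width was 534 bp, the nearest start 401 bp away, TAGGG in 36.5% and 57.7% within 500 bp of a start. Without 20 kb at chromosome ends, 76.1% lay within 500 bp of a start. TAGGG was found within 50 bp in 42.0% and within 200 bp in 61.6%, and 42.7% lay within 300 bp of a start. The main values are 54.9%, 34.1%, 4.71%, 323 bp, 709 bp, 52.5% and 67.8%; the other alternatives stayed inside their intervals. No paired analysis was possible because each strain has 1 library. With 1 library and no read counts, how these values would vary between cultures is not known.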
